A study of Drosophila mojavensis with 14 samples.

Results

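The comparison described here sets the lower reproductive tract of Drosophila mojavensis females 2 h after copulation against the same tissue 15 min after copulation, over both kinds of mating. Its members were chosen by their labels: 4 arrays at 2 h and 4 arrays at 15 min, which are 8 of the 14 arrays of the series. Each time held 2 arrays of conspecific matings, with D. mojavensis males, and 2 of heterospecific matings, with D. arizonae males. Females of 1 isofemale line were collected as virgins, aged for 10 to 12 days and placed singly with 2 males, and males were removed after copulation. Each array measured RNA pooled from 20 to 25 tracts, amplified before Cy3 labelling, and the labels call the arrays of a group biological replicates. The other 6 arrays, 2 of virgin females of that line and 2 of each mating type at 6 h, entered the normalization and serve below only to show levels outside the comparison.

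The lower reproductive tract of a female fly receives sperm and the secretions of the male accessory glands during copulation, and stores the sperm in specialised organs. In flies of the D. mojavensis group a mass forms in the female tract after insemination, known as the insemination reaction, and it is broken down over the following hours. D. arizonae is a sister species of D. mojavensis, so a heterospecific mating brings the ejaculate of a related but different male into the same tract.

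Of the 14519 transcripts on the array, 14471 carry a GI number, the systematic gene name of this species, and 48 carry a symbol. The reference gene table matched 0 of these names, so the genes behind GI numbers are given without a function. The defining markers of the tract's cell types could not be looked up for the same reason, and the tissue label was not checked against them. The raw upper quartile of intensity ran from 943 to 2912 over the 8 arrays, with the lowest values on conspecific 15 min replicate 2 (943) and conspecific 2 h replicate 1 (1413), called the 2 dim arrays here. Between 8419 and 8830 transcripts lay above the background limit of an array, which was 7.44 to 7.68 on the log2 scale. Log2 probe values, taken relative to the mean of each probe over all arrays of the series, also sloped differently along the transcripts. From the middle of a transcript to its end, in probe order, the mean slope was 0.01 to 0.26 at 15 min and -0.11 to 0.18 at 2 h. The 2 dim arrays had the highest slope of their time.

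Few transcripts differed between 2 h and 15 min at the threshold. In a limma fit of the 8 arrays with mating type as a term, 12 of 14519 transcripts (0.0827%) had an adjusted p under 0.05. Of these 8 (0.0551% of all) were higher at 2 h, by 1.75-fold to 3.14-fold, and 4 (0.0276%) were lower, by 2.02-fold to 3.24-fold. Every one of the 12 moved in the same direction after conspecific and after heterospecific mating, and in all 12 the 4 arrays at 2 h lay on one side of the 4 arrays at 15 min. Over all transcripts 662 (4.56%) showed such a gap, 357 (2.46%) with 2 h higher and 305 (2.10%) with 2 h lower. The 12 were called on these same arrays, so their shared direction and their gap largely follow from the selection. Before adjustment 1692 transcripts (11.7%) had a limma p under 0.05, namely 954 higher (6.57%) and 738 lower (5.08%), and 726 would do so by chance. In pooled tissue, fewer cells of a type and less RNA per cell cannot be told apart.

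The number of calls depended on single arrays. Without the 2 dim arrays the same fit called 384 transcripts, 285 higher and 99 lower, all 12 among them. Of the conspecific 15 min arrays, leaving out replicate 1 gave 71 calls and leaving out replicate 2 gave 3. Of those at 2 h, leaving out replicate 1 gave 116 and replicate 2 gave 2. Without any 1 of the 4 heterospecific arrays limma called 0, and 1028 to 1492 transcripts kept a p under 0.05 before adjustment. With median scaling 64 were higher and 8 lower, a share of 88.9% higher against 66.7%. All 12 kept their sign in each of the 25 alternative fits, and leaving out 1 array changed no log2 change by a factor below 0.904 or above 1.11. Some of these fits alter only the spread, the filter or the threshold, so the change itself could not move. The arrays of the 12 also did not overlap between the times, so the kept sign is a description and no separate test.

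GI10515 showed the largest rise among the 12. Its normalized log2 level at 15 min was 10.11 and 10.02 after conspecific and 10.49 and 10.47 after heterospecific mating. At 2 h it was 11.16 and 11.91 after conspecific and 12.43 and 12.19 after heterospecific mating. All 4 arrays at 2 h were thus well above all 4 at 15 min, with the heterospecific pair highest. The log2 change was 1.65 (3.14-fold, SE 0.17, limma adjusted p = 0.0192). Virgin tracts, at 10.03 and 10.29, lay near the 15 min level, while the 6 h arrays lay at 11.33, 12.05, 11.78 and 12.30 and so overlapped those at 2 h.

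GI10253 rose as well and was lower again at 6 h. At 15 min it lay at 9.15 and 9.54 after conspecific and at 9.19 and 9.12 after heterospecific mating. At 2 h the conspecific arrays read 10.74 and 10.88 and the heterospecific arrays 10.49 and 10.86. Here the mating types overlapped at each time, and the times did not. The log2 change was 1.50 (2.82-fold, SE 0.13, adjusted p = 0.0192 in the limma fit), with 1.47 after conspecific and 1.53 after heterospecific mating. The virgin arrays gave 9.51 and 9.28. At 6 h the values were 8.91 and 10.06 after conspecific and 9.17 and 9.73 after heterospecific mating, all below each of the 4 arrays at 2 h.

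A pair of further rises was picked out after their values were seen. GI12300 combined the smallest standard error of the 12 with a change of 0.98 (1.97-fold, SE 0.10, limma adjusted p = 0.0192). It went from 8.87 and 9.01 to 9.96 and 9.95 after conspecific mating and from 8.68 and 8.63 to 9.63 and 9.58 after heterospecific mating. Replicates thus lay close together, and the virgin arrays, at 8.36 and 7.78, lay below every mated array. GI13350 was at 13.94 and 13.60 after conspecific and 14.15 and 14.30 after heterospecific mating at 15 min, and at 14.56 and 15.10 and 15.32 and 15.33 at 2 h. Its change was 1.08 (2.12-fold, SE 0.15, limma adjusted p = 0.0467), with 1 of its 40 probe values on these arrays at the scanner ceiling of 65535, on a 2 h array. The other 4 rises ranged from 0.81 to 1.07 on the log2 scale (SE 0.10 to 0.13, limma adjusted p of 0.0423 to 0.0467), and the lowest 2 h array exceeded the highest 15 min array by at least 0.33 in each.

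GI15007 and GI14996 fell most. GI15007 stood at 13.26 and 13.39 after conspecific and 12.94 and 12.71 after heterospecific mating at 15 min. At 2 h it was down to 11.96 and 12.13 after conspecific and to 10.77 and 10.66 after heterospecific mating. The times did not overlap, and at 2 h the heterospecific arrays lay below the conspecific ones. The log2 change was -1.70 (3.24-fold lower, SE 0.18, limma adjusted p = 0.0192). GI14996 moved from 13.63 and 13.63 to 12.23 and 12.57 after conspecific mating and from 13.41 and 13.06 to 11.09 and 11.30 after heterospecific mating. Its change of -1.64 (3.11-fold lower, SE 0.19, limma adjusted p = 0.0289) was close to that of GI15007, and the same order of mating types appeared at 2 h. In virgins GI15007 was at 12.73 and 12.79 and GI14996 at 13.04 and 13.12, below or within the 15 min values and above each 2 h value.

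The other falling transcripts, named because only 4 fell, were GI14198 and GI21692. GI14198 was at 10.75, 11.14, 10.91 and 10.67 at 15 min, the conspecific arrays first, and at 10.08, 9.87, 9.69 and 9.76 at 2 h. GI21692 was at 10.16, 10.34, 9.96 and 10.10 at 15 min and at 9.48, 9.35, 8.93 and 8.75 at 2 h. Neither transcript overlapped between the times. The log2 changes were -1.02 for GI14198 (2.03-fold lower, SE 0.13) and -1.01 for GI21692 (2.02-fold lower, SE 0.12), each with a limma adjusted p of 0.0423.

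**Figure D1:**
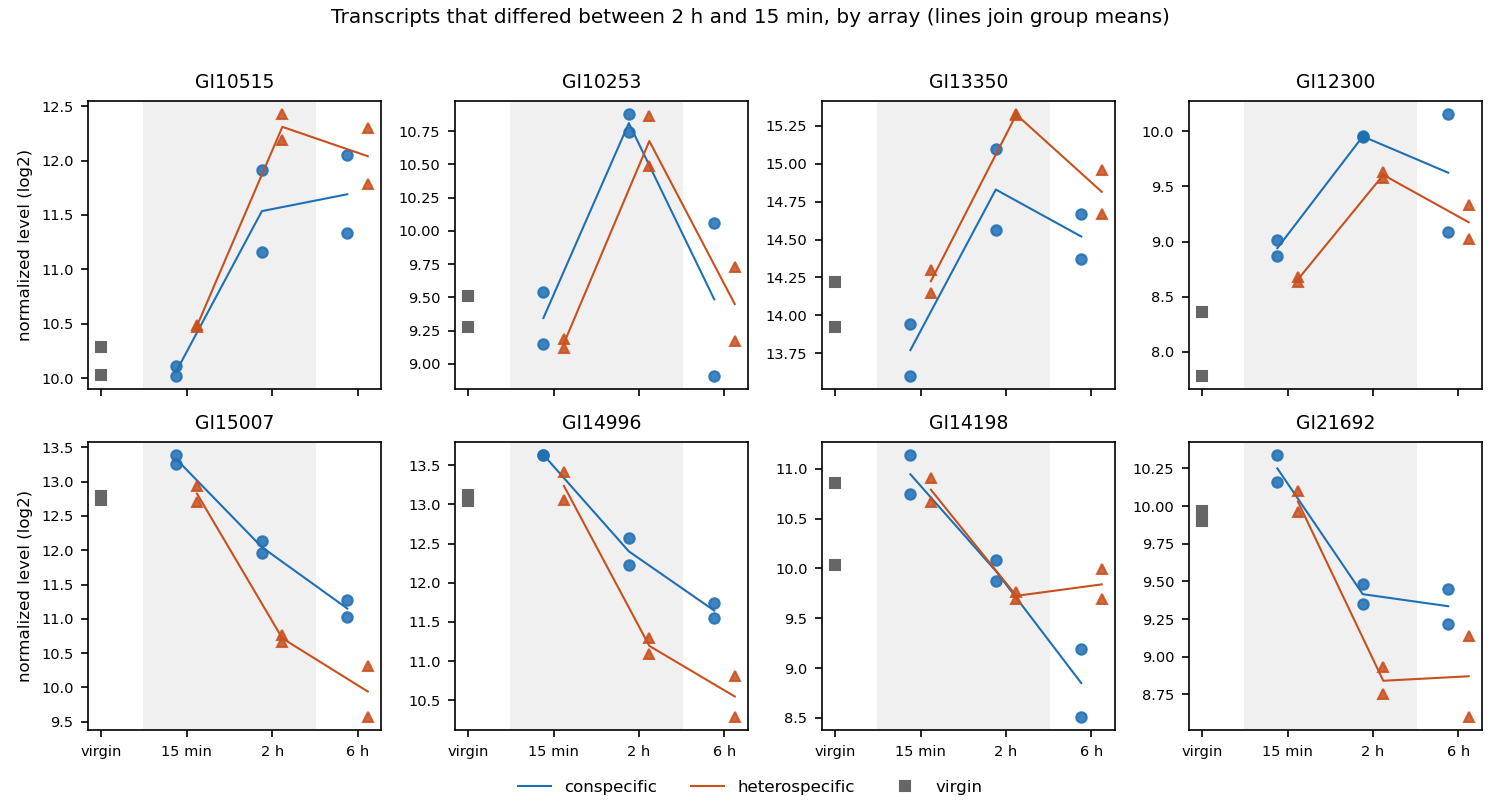
Normalized log2 level of 8 transcripts that passed the test (4 higher and 4 lower at 2 h) on each of the 14 arrays, with the compared times shaded, points for arrays and lines through group means. In all 8 panels the 4 arrays at 2 h lie apart from the 4 at 15 min, and the mean of GI10253 goes from 10.75 at 2 h to 9.47 at 6 h, beside 9.39 in virgins.

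The probes of each transcript moved in the same direction, though not always by the same size. The 12 transcripts were measured by 58 probes, and all 58 had a mean change in the direction of their transcript. The calls rest on these same probes, so this is a description and no separate test. Single probes changed by 1.48 to 1.89 for GI10515, by 0.21 to 1.29 for GI12300, by -1.84 to -1.50 for GI15007 and by -1.70 to -1.53 for GI14996. The probes of GI12300 therefore disagreed more in size than those of GI15007 or GI14996. Of the 12, GI23236 had the widest spread, with 1.89, 1.34, 0.71, 0.57 and 0.54 from its first probe to its last. From first to last probe the change also went from 1.43 to 0.34 in GI18850, from 1.41 to 0.80 in GI20408 and from -0.58 to -1.64 in GI21692. Others of the 12 went the opposite way, such as GI13350, from 0.65 to 1.19. The arrays themselves differed in slope between the times, and whether that shaped these gradients was not tested.

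**Figure D2:**
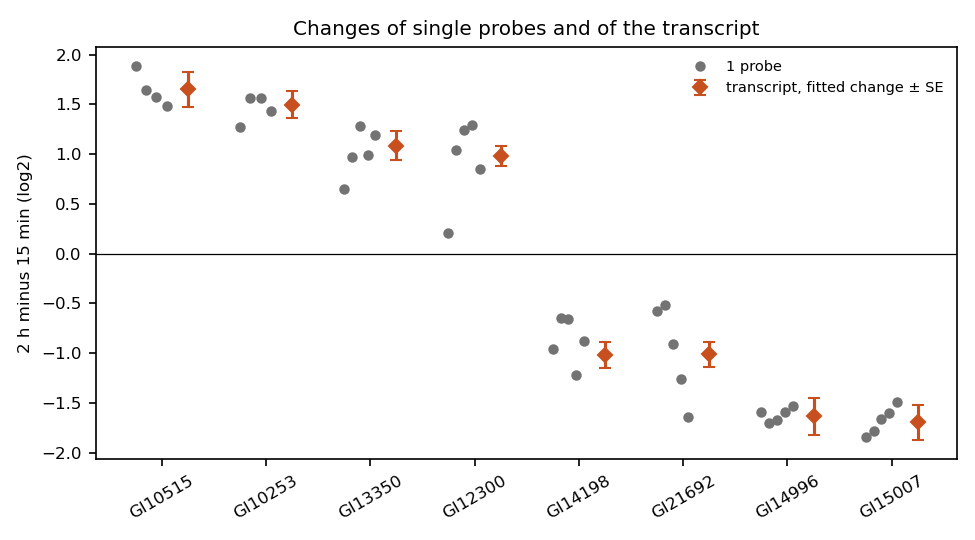
Log2 difference between 2 h and 15 min (y axis) for each probe (grey) and for the transcript with its SE (orange diamonds) for the same 8 transcripts (x axis). No probe crosses 0, and probe changes spread most for GI12300, from 0.21 to 1.29, and GI21692, from -1.64 to -0.52.

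The change over time was then taken in each mating type, with the spread shared by the 4 groups. After conspecific mating limma called 0 of 14519 transcripts. Before adjustment 804 (5.54%) had a p under 0.05, where 726 would do so by chance. The lowest adjusted p in that fit was 0.0996, for GI11600, with a log2 change of -1.80 (SE 0.17). After heterospecific mating limma called 3 (0.0207%), 1 higher (0.00689%) and 2 lower (0.0138%). Before adjustment 1296 (8.93%) had a p under 0.05, beside the same chance count of 726. The lower ones were GI15007 (-2.11, SE 0.17, limma adjusted p = 0.0231) and GI14996 (-2.04, SE 0.20, limma adjusted p = 0.0349). After conspecific mating they changed by -1.28 and -1.23, with limma adjusted p-values of 0.308 and 0.415.

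The riser after heterospecific mating was GI21109. It stood at 10.39 and 10.66 at 15 min and at 13.15 and 12.98 at 2 h, a log2 change of 2.54 (SE 0.24, limma adjusted p = 0.0349). After conspecific mating it was at 10.75 and 11.43 at 15 min and at 11.94 and 11.99 at 2 h, a change of 0.87 (SE 0.24, limma adjusted p = 0.619). Arrays of the times did not overlap in either mating type, and the heterospecific 2 h arrays were highest. Over both mating types its change of 1.71 (SE 0.32) did not pass, with a limma adjusted p of 0.0962, though it passed without the 2 dim arrays (adjusted p = 0.00673, from a range of 0.000234 to 0.367 over 25 alternatives).

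All 3 heterospecific calls were lost without any 1 of the 4 heterospecific arrays, where limma called 0 and 469 to 1586 transcripts had a p under 0.05 before adjustment. They were also lost with the day as a block (limma adjusted p of 0.274 to 0.389) and with the replicate number as a block (limma adjusted p of 0.169 to 0.225). GI14996 was lost too without either conspecific 15 min array. It was also lost with a normexp offset of 0 (limma adjusted p = 0.0553), no background correction (limma adjusted p = 0.0895) and cyclic loess (limma adjusted p = 0.0514). GI21109 was lost with no background correction (limma adjusted p = 0.0895), while GI15007 passed in each of these processing alternatives. The directions of all 3 held in each of these fits, which follows largely from the selection of transcripts with separate arrays.

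The difference between the changes of the mating types was tested directly. Here limma called 0 of 14519 transcripts, and the lowest adjusted p was 0.9999. Before adjustment 385 (2.65%) had a p under 0.05, fewer than the 726 given by chance. The heterospecific minus the conspecific change was 1.66 for GI21109 (SE 0.34), -0.83 for GI15007 (SE 0.24) and -0.81 for GI14996 (SE 0.28), and each of these failed the adjustment (limma adjusted p = 0.9999). GI11600 had a lower p before adjustment than each of them, at a difference of 1.73 (SE 0.24), and failed too (limma adjusted p = 0.9999). Its change after conspecific mating was -1.80. Of the 12 called transcripts, GI15007 and GI14996 alone had a p under 0.05 for that difference before adjustment. The conspecific and heterospecific changes share no array, although all arrays were normalized together. Their limma p-values do share the spread within the 4 groups, so the lists by p below are not independent. Across the 14519 transcripts, which are not independent replicates, their Pearson correlation was 0.459. At an unadjusted p under 0.05, 218 transcripts were in both lists, which is 27.1% of the conspecific and 16.8% of the heterospecific list. Of all transcripts, 8.93% were on the heterospecific and 5.54% on the conspecific list. Of these 148 were higher at 2 h in both, 66 lower in both and 4 opposite.

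**Figure D3:**
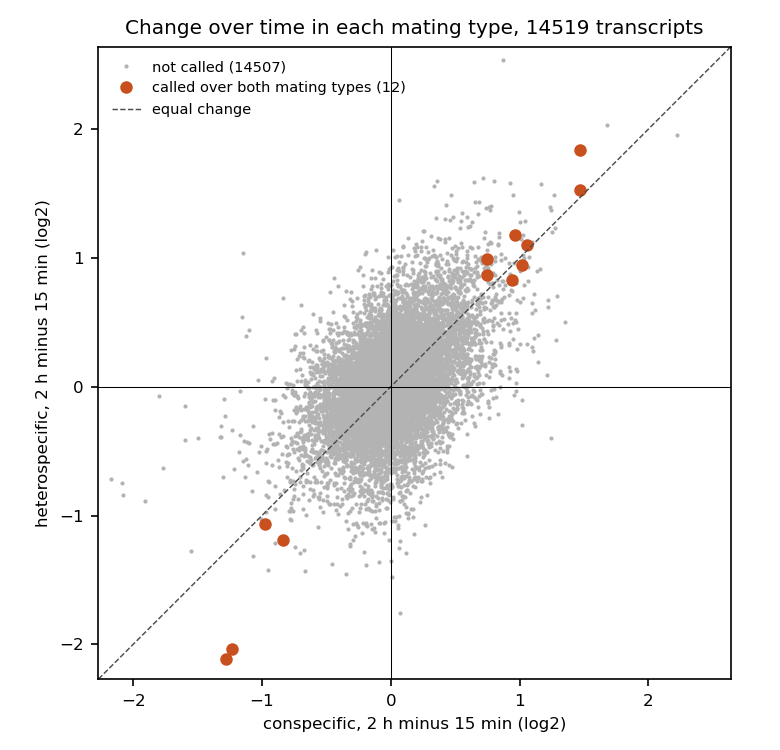
Log2 change from 15 min to 2 h after conspecific (x axis) and heterospecific mating (y axis) for 14519 transcripts, with the 12 called over both mating types in orange and a dashed line for equal change. The 12 lie in the quadrants where both changes have the same sign, and the lower pair, GI15007 and GI14996, lies below the dashed line at -1.28 and -2.11 and at -1.23 and -2.04.

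The day on which probe values were read from the images moved with the comparison in 1 mating type. All 4 conspecific arrays were read on day 2, both heterospecific 2 h arrays on day 1, and the heterospecific 15 min arrays on 1 day each. Within day 2 the conspecific changes of the 12 transcripts were 0.75 to 1.47 for the rises and -1.28 to -0.83 for the falls. Within day 1, against heterospecific 15 min replicate 1 alone, the changes were 0.79 to 1.83 and -2.22 to -1.12. All 12 thus had the same direction on both days. They were called on these same arrays, so that is no separate test of the day. With the day as a block limma called 0 transcripts, 1357 had a p under 0.05 before adjustment, and the adjusted p of the 12 ran from 0.102 to 0.129, with changes of 0.911 to 1.08 times the reported ones. That fit takes up heterospecific 15 min replicate 2, the single heterospecific array of day 2, and equals the fit without it. With the probe slope as a covariate 73 transcripts were called, including all 12.

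Levels on the 6 remaining arrays were read beside these changes, in a limma fit of 6 h against virgin that was added after the data were seen. It called 0 of 14519 transcripts, and before adjustment 1574 (10.8%) had a p under 0.05. Both virgin arrays were read on day 2, and all 6 h arrays but conspecific replicate 1 on day 1. In that fit, time and day therefore cannot be fully told apart. Virgin replicate 2 and conspecific 6 h replicate 1 were also dim, with raw upper quartiles of 1056 and 1183. The 8 rises were all higher at 6 h than in virgins, by 0.07 (GI10253) to 1.70 (GI10515) on the log2 scale, 7 of them at an unadjusted limma p under 0.05. All 4 falls were lower at 6 h than in virgins, by a log2 difference of -2.21 (GI15007) to -0.83 (GI21692), all at an unadjusted limma p under 0.05. From 2 h to 6 h the mean level of 7 of the 8 rises went down, by up to 1.28 for GI10253, and that of all 4 falls went further down, by 0.03 for GI21692 to 0.84 for GI15007. At 15 min the 4 falls had mean levels 0.21 to 0.42 above virgin, while the 8 rises lay between -0.16 and 0.72 of it. These last differences are descriptions with no test, since they share arrays with the comparison.

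The largest fitted rise of any transcript did not pass. GI16419, singled out after its value was seen, rose by 2.09 (SE 0.35), but its limma adjusted p was 0.0696. Its arrays read 9.51, 8.92, 9.84 and 10.26 at 15 min and 10.50, 12.37, 12.08 and 11.93 at 2 h, the conspecific ones first. Conspecific 2 h replicate 1, a dim array, lay closest to the 15 min arrays. In all, 58 transcripts (0.399%) had a fitted change of at least 1 on the log2 scale, 41 upward (0.282%) and 17 downward (0.117%), and 4 of each (0.0276%) passed the test.

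Among the 48 transcripts with a symbol, limma called 0, against 0.0827% of all transcripts. An unadjusted limma p under 0.05 was found for 5 of the 48 (10.4%), against 11.7% of all transcripts. All 5 were lower at 2 h, and over all transcripts 5.08% were lower at that p. The lowest adjusted p was that of Xdh, the gene of xanthine dehydrogenase, which acts in purine breakdown and, in D. melanogaster, in eye pigment formation. Xdh lay at 9.92 and 10.99 after conspecific and 10.07 and 9.92 after heterospecific mating at 15 min. At 2 h it lay at 10.08 and 9.03 and at 9.15 and 8.95. The times overlapped through the dim conspecific 2 h replicate 1. The log2 change was -0.93 (SE 0.27, limma adjusted p = 0.254), with -0.90 after conspecific and -0.95 after heterospecific mating. Without the 2 dim arrays its adjusted p was 0.0116, in a range of 0.0116 to 0.637 over 25 alternatives.

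The alcohol dehydrogenase genes Adh1 and Adh2 come from a gene duplication in the D. mojavensis lineage, and their enzymes oxidise alcohols taken up from fermenting cactus. Adh2 was at 10.87, 10.74, 10.74 and 10.58 at 15 min and 10.56, 10.27, 10.35 and 10.50 at 2 h, the conspecific arrays first, so that the times were separate by a narrow gap. Its log2 change was -0.31 (SE 0.12, limma adjusted p = 0.362). Adh1 was at 10.16, 10.28, 9.53 and 10.08 at 15 min and at 10.00, 9.41, 9.41 and 9.67 at 2 h, where the times overlapped, and its change was -0.39 (SE 0.18, limma adjusted p = 0.433).

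Acp genes are named after the accessory gland proteins that males pass to females in seminal fluid. Of the 4 Acp transcripts 0 passed, 1 had a positive and 3 a negative fitted change, and their median change was -0.35, against -0.02 over all transcripts. That median was -0.16 without heterospecific 15 min replicate 2 and -0.59 when transcripts not above background on average were left out. Acp2 was not above background on any of the 4 conspecific arrays (6.60 to 6.83). After heterospecific mating it was at 9.94 and 12.00 at 15 min and at 9.46 and 9.91 at 2 h, with the day 1 replicate of 15 min close to the 2 h arrays. That change of -1.28 (SE 0.55) had a limma adjusted p of 0.555. Acp11 was not above background on the conspecific arrays either, and after heterospecific mating read 8.13 and 9.59 at 15 min and 7.82 and 8.02 at 2 h.

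The 25 Tes transcripts had a median log2 change of -0.04 (0.02 over those above background on average), with 10 positive and 15 negative values and 0 called. An unadjusted limma p under 0.05 was found for 3 (12.0%, against 11.7% of all transcripts). All 3 were lower at 2 h, against 5.08% of all transcripts lower at that p. What the prefixes Tes and moj stand for is not given in the sources used here, and 12 of the 25 were not above background on any of the 8 arrays. Tes14 read 11.67 and 12.29 after conspecific and 11.48 and 11.33 after heterospecific mating at 15 min. At 2 h it read 11.78 and 11.32 and then 10.75 and 10.70, so the times were apart after heterospecific mating and overlapped after conspecific mating. Its log2 change was -0.55 (SE 0.17, limma adjusted p = 0.264). Tes131 changed by -0.36 (SE 0.15, limma adjusted p = 0.415) and was above background on 4 arrays at 15 min and on 2 at 2 h. Tes127 was not above background on any 2 h array and on 1 at 15 min, so no fold is given. The 6 moj transcripts, all above background, had a median change of 0.06 within a range of -0.05 to 0.28, and 0 passed. That median was -0.02 without heterospecific 15 min replicate 2 or with the day as a block, and -0.0022 with the slope in the fit.

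The remaining 10 symbols stand for genes of known function in D. melanogaster, and 0 of them passed. Dscam, a cell adhesion receptor of the immunoglobulin superfamily, was at 9.18 and 9.15 at 15 min and at 8.48 and 8.41 at 2 h after conspecific mating, and at 9.24 and 8.69 and then 9.02 and 8.76 after heterospecific mating. The conspecific arrays were separate and the heterospecific arrays overlapped, with log2 changes of -0.72 (SE 0.21, limma adjusted p = 0.702) and -0.07. The change of cbt, a zinc finger transcription factor, was -0.35 (SE 0.23, limma adjusted p = 0.584), from 12.60, 12.03, 13.09 and 12.45 at 15 min to 11.48, 12.31, 12.27 and 12.70 at 2 h, with overlap. For per, a core gene of the circadian clock, the change was -0.25 (SE 0.17, limma adjusted p = 0.596). The largest positive change in this group, 0.29 (SE 0.13, limma adjusted p = 0.434), was that of beta4GalT7, a galactosyltransferase of proteoglycan synthesis.

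**Figure D4:**
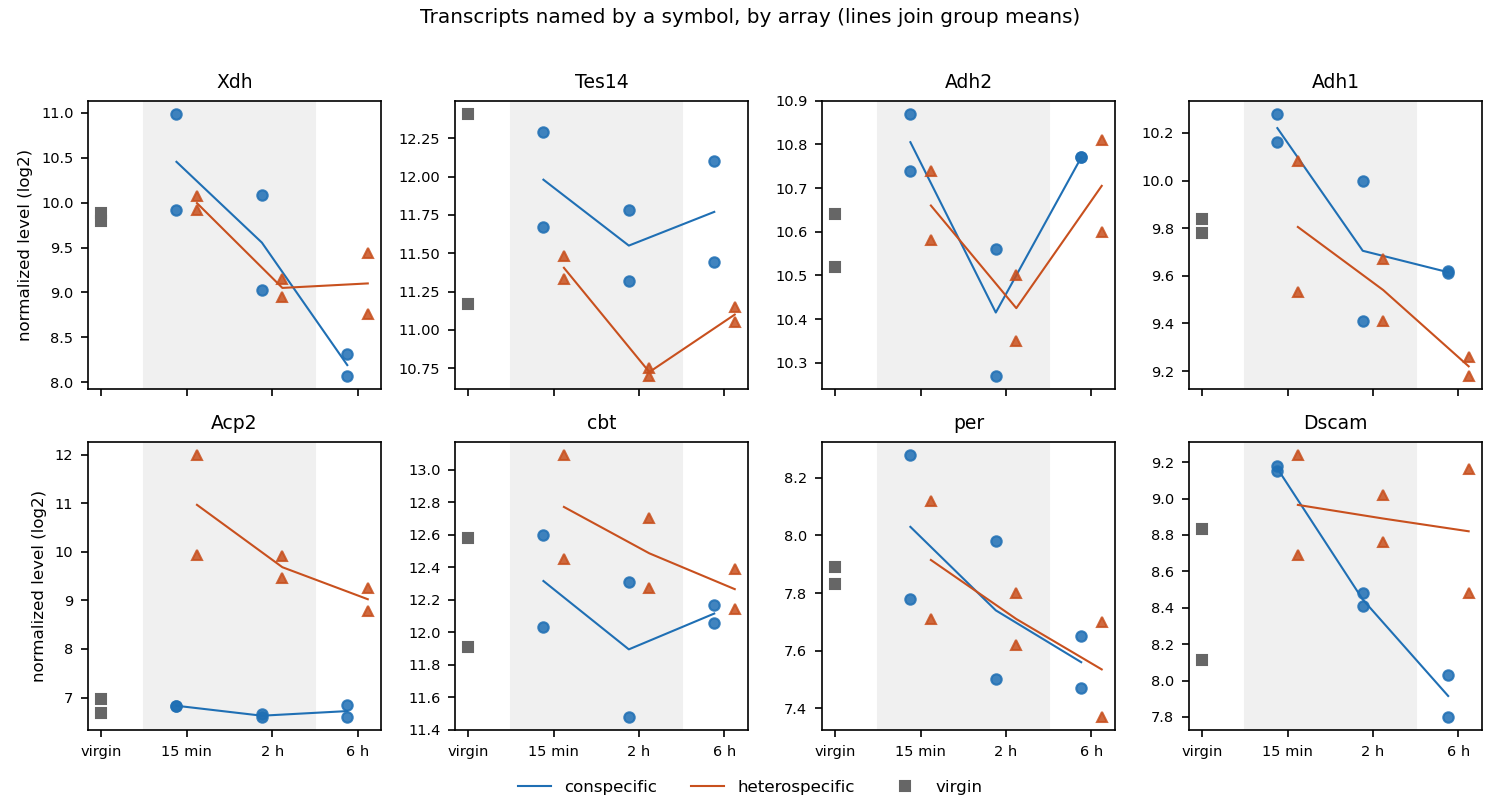
Normalized log2 level of 8 transcripts with a symbol on each of the 14 arrays, with the compared times shaded, points for arrays and lines through group means. Adh2 is the single one of these whose 4 arrays at 2 h lie apart from the 4 at 15 min, and Acp2 stays near 7 on all virgin and conspecific arrays.

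**Figure D5:**
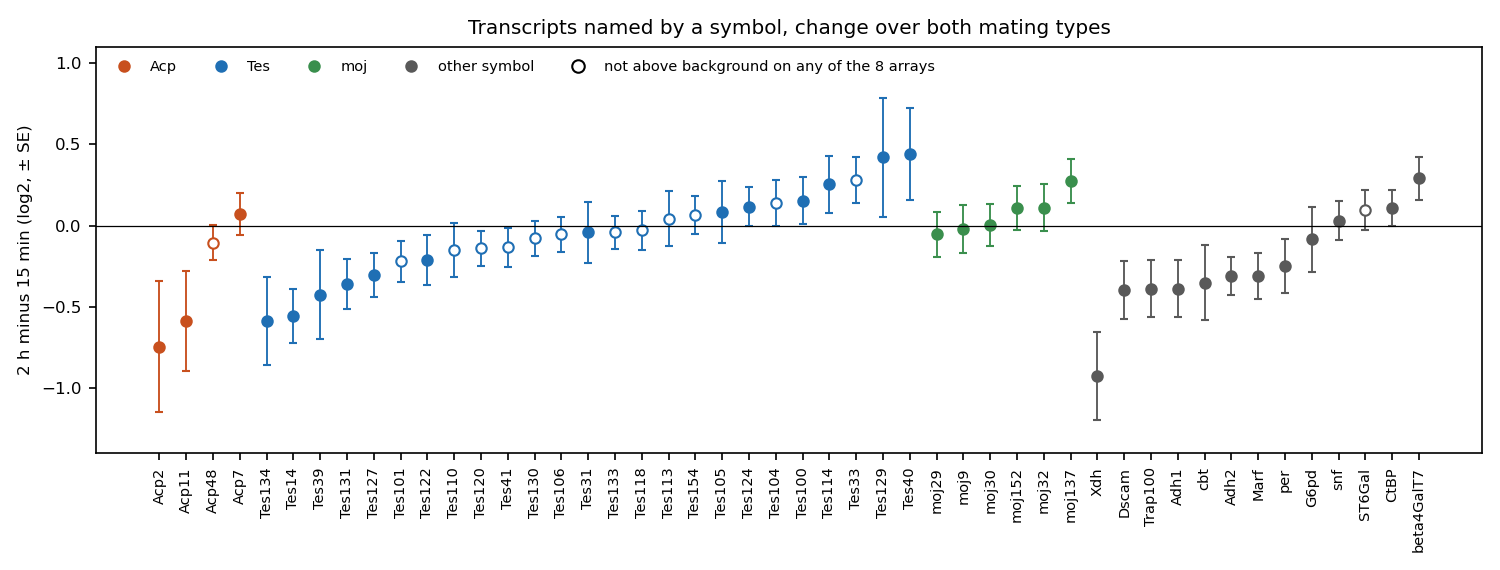
Log2 change from 15 min to 2 h over both mating types (y axis, bars are SEs) for the 48 transcripts with a symbol, by name class, with open circles for those not above background on any of the 8 arrays. Xdh has the lowest value, at -0.93, and Tes40 the highest, at 0.44.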

How the data were processed

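Probe intensity values were read from 1-colour array images with NimbleScan 2.4.67, per the file headers. RMA is named in the submitters' processing notes, yet the deposited table of values held the raw intensity of each probe (0 values differed). Each array held 71998 probes, 5 for most transcripts. Background was corrected by normexp with an offset of 50, followed by log2, quantile normalization over all 14 arrays and median polish over the probes of a transcript (limma 3.58.1 in R 4.3.3). The offset understates changes of dim transcripts. The background limit of an array lies 2 SDs above the mode of its transcript values, with the SD taken from values below the mode.

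The comparison used limma on 8 arrays with time and mating type as terms (5 residual and 4.10 prior degrees of freedom). The changes within a mating type and their difference came from 4 group means (4 residual degrees of freedom). Tests were 2-sided with Benjamini-Hochberg adjustment over all 14519 transcripts, and the threshold was an adjusted p of 0.05. The median SE of a log2 change was 0.14 over both mating types and 0.21 in 1; precision is limited by how few arrays there are. The rule for named transcripts took, among those that passed, the GI numbers with the 2 largest rises and the 2 largest falls, with the arrays separate in each mating type, and other GI numbers were picked after their values were seen. Members and lists were chosen with earlier results of these data known. Lists resting on protein descriptions were not used, since the reference table gives none for these names. Replicate numbers were not taken as pairs, since not every pair of groups had replicate differences that correlated above 0.1. The correlations were -0.63 between the conspecific times and -0.0024 between the heterospecific times, 0.25 at 15 min and 0.29 at 2 h between mating types, and -0.14 and -0.24 for the other pairs of groups. Alternatives were other background corrections, scalings, summaries and fits, blocks for day and replicate number, and leaving out arrays.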

Additional observations from a re-analysis of the deposited data

Results flagged for a closer look

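Over the 4 arrays of a time, 1 array stood apart from the other 3 by Dixon's criterion for 3 of 50 sets of values, where chance gives about 1 in 20. For GI10253 at 15 min conspecific replicate 2 read 9.54 and the others 9.12 to 9.19. For Xdh at 15 min the same dim array read 10.99 and the others 9.92 to 10.07. For Dscam at 15 min heterospecific replicate 2 read 8.69 and the others 9.15 to 9.24. These sets hold arrays of both mating types.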

How the results depend on the processing

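Over both mating types the count of 12 became 4 with a normexp offset of 0, 72 with median scaling, 22 with cyclic loess, 37 with the mean of the probes, 5 with transcripts above background on average alone and 5 with eBayes trend and robust settings. It became 7 (2 higher and 5 lower) with 1 mean per group over all 14 arrays, 73 with the probe slope as a covariate, 341 with array weights, 384 without the 2 dim arrays and 0 with the day as a block. With the replicate number as a block it was 1, and crossing the conspecific numbers, an alternative added after the data were seen, gave 41. Without 1 array it ran from 0 to 116. The conspecific count of 0 became 4 with median scaling, 1 with trend and robust settings, 2 over all 14 arrays and 1 with the slope, and stayed 0 without any 1 array. The heterospecific count of 3 became 1 with no background correction, 35 with median scaling, 6 with array weights, 15 with the slope and 98 without the 2 dim arrays. It was 0 with the day and 0 with the replicate number as a block, 0 to 5 without 1 array, and 143 on the 3 arrays of day 1 alone, where the spread came from the 2 h pair. The difference between mating types gave 0 calls in every fit, with 116 to 1153 transcripts at an unadjusted limma p under 0.05. All 12 transcripts were called in 7 of the 25 alternatives and 0 of them in 5, but these are not 25 distinct fits. The deposited value table, among the 7, repeats the main values. The fits with the day as a block and without heterospecific 15 min replicate 2, both among the 5, are equal. The median change of the Acp transcripts moved from -0.35 to -0.59 when dim transcripts were left out. The cause of these shifts was not tested. No called transcript changed sign under any alternative run for it, which follows largely from their selection on these same arrays. The median over the Tes transcripts went from -0.04 to 0.02 with those above background on average alone. That over the moj transcripts went from 0.06 to -0.02 with the day as a block and without heterospecific 15 min replicate 2, and to -0.0022 with the slope.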
